A study of Mus musculus with 4 samples.

Results

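The genes described here run the calcium cycle of the heart muscle cell and carry 2 of its ion currents. They are Ryr2, Casq2, Atp2a2, Pln, Slc8a1, Kcnq1, Atp1b1 and Atp1b2. All probe sets (groups of short oligonucleotides that read 1 transcript) annotated to exactly 1 of these 8 genes were taken, which gave 21 of the 20393 probe sets with 1 gene and 8 of 12394 genes. Kcnq1 and Atp1b2 had been picked because they read higher on the mutant arrays. The other 6 genes were chosen for their role in heart muscle, with earlier results of these data known.

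The samples are total RNA of mouse mitral valve, each read on its own single-colour array, 4 in all. The Hom group held 1 array, from valve homozygous for the C1039G allele of Fbn1. The Het group held 2 arrays, from valve with 1 mutant and 1 normal copy, whose labels leave out the substituted amino acid. The WT group held 1 array, from valve with 2 normal copies. Fbn1 encodes fibrillin-1, a glycoprotein of extracellular microfibrils, and C1039G mice are used as a model of Marfan syndrome. Age, sex, strain and any pooling of valves were not given in the sources used here, so the spread between the Het arrays may be technical or biological.

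In heart muscle, calcium entering the cell opens Ryr2, the release channel of the sarcoplasmic reticulum, an internal store in which Casq2 binds calcium. The pump encoded by Atp2a2 (SERCA2) returns calcium to that store, and Pln, phospholamban, inhibits the pump until it is phosphorylated. The exchanger encoded by Slc8a1 expels calcium in return for sodium, and the sodium pump, whose beta subunits are encoded by Atp1b1 and Atp1b2, maintains the sodium gradient that drives it. Kcnq1 forms with Kcne1 the slow potassium channel that helps to end the action potential. The mitral valve leaflet itself is mostly matrix, interstitial cells and endothelium, and heart muscle borders it at its base.

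Intensities are given as deposited, on a linear scale. For differences, values under 18.9, the 25th percentile of all values, were set to that floor before log2 was taken. Of the 21 probe sets, 15 had a mean of at least 62.6, the median over the whole array, and 11316 probe sets in all passed this filter. Slc8a1 had none among the 15. Kcnq1 and Atp1b2 passed at means of 65.3 and 67.7, through their values on the mutant arrays, so their presence among the 15 is no evidence that they differ. Intensities of different probe sets are not comparable as amounts of RNA.

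Markers of heart muscle cells differed between the arrays. The sum over 30 sarcomere and metabolic genes of heart muscle was 57369 in Hom, 72111 and 27743 in Het replicates 1 and 2, and 57277 in WT. The brightest probe sets weigh most in this sum. None of the 30 was at 0 on any array and only Myom2 was under the floor, on 1 array. Of these markers, 22 of 30 were higher than WT in Het replicate 1 (median log2 difference 0.17) and 15 of 30 in Hom (median 0.02). In Het replicate 2, 29 of 30 were lower than in WT, with a median log2 difference of -1.08. Fewer muscle cells and less RNA per muscle cell cannot be told apart in bulk tissue. Other cell types also moved in Het replicate 2, where all 10 interstitial markers were lower than in WT (median -0.88), as were all 12 endothelial markers (median -0.53). On the same array 13 of 14 macrophage markers were higher than in WT (median 0.59), and the 3 erythroid markers that passed the filter were each at least 2-fold higher (median 1.30). The Actb 3' to 5' signal ratio, a gauge of RNA integrity, was 2.16 in Hom, 2.19 and 3.04 in Het replicates 1 and 2, and 2.25 in WT. The same ratio for Gapdh was higher on every array, at 3.84 in Hom, 3.19 and 4.65 in Het replicates 1 and 2, and 4.18 in WT. The part of these differences in the results was not tested.

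**Figure D1:**
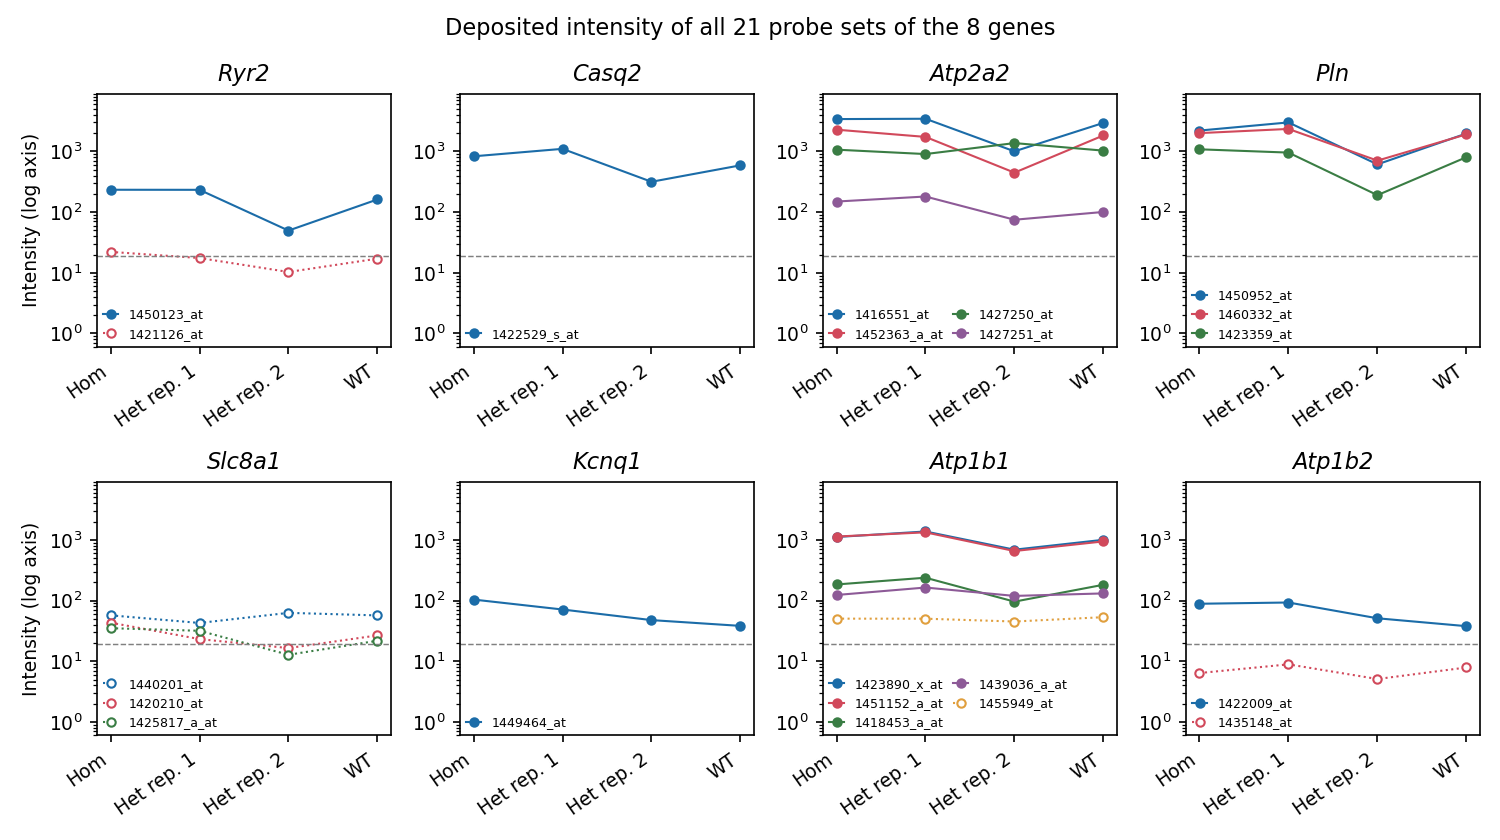
Deposited intensity (log axis) of all 21 probe sets of the 8 genes on the Hom, Het replicate 1, Het replicate 2 and WT arrays. Filled points passed the intensity filter, open points did not, thin lines join the values of 1 probe set, and the dashed line is the floor of 18.9. Het replicate 2 was the lowest array for 12 of the 15 probe sets that passed.

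Over the 15 probe sets, Het replicate 2 stood apart from the other 3 arrays. It was the lowest array for 12 of them, where it was the lowest for 40.7% of all probe sets that passed the filter. A pattern of Hom and Het replicate 1 above WT with Het replicate 2 below it was shown by 10 of 15, against 15.4% of all. Relative to WT, 6 of 15 were at least 2-fold lower in Het replicate 2, and these were the Ryr2 probe set, 2 of Atp2a2 and all 3 of Pln. The share of all probe sets at least 2-fold lower there was 4.75%, while 16 of the 30 cardiomyocyte markers were. None of the 15 was at least 2-fold lower in Hom or in Het replicate 1, where 0.539% and 1.18% of all probe sets were. None was at least 2-fold higher in Het replicate 2 (2.55% of all). Between the Het arrays, 10 of 15 were at least 2-fold lower in replicate 2 (6.11% of all) and 0 of 15 higher (3.88% of all). Of the 30 cardiomyocyte markers, 21 were at least 2-fold lower in replicate 2 and 0 higher, so this drop was not particular to the 8 genes.

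The 2 genes that release and store calcium followed this shape. Ryr2 read 233.4 in Hom, 232.8 and 49.6 in Het replicates 1 and 2, and 161.6 in WT. The Hom and Het replicate 1 arrays were nearly equal and above WT, and Het replicate 2 was 3.26-fold below WT. Casq2 read 830.1 in Hom, 1102.1 and 315.9 in Het replicates 1 and 2, and 589.6 in WT, by a probe set whose suffix marks possible binding to several transcripts. It was 1.41-fold higher in Hom and 1.87-fold higher in Het replicate 1 than in WT, and 1.87-fold lower in Het replicate 2. The second Ryr2 probe set read 22.1 in Hom, 17.5 and 10.3 in Het replicates 1 and 2, and 17.1 in WT, below the floor on 3 of 4 arrays.

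Neither gene passed a test between genotypes. For Ryr2, Het minus WT was -0.59 log2 units (SE 0.71, limma adjusted p = 0.9999, lower in 1 of 2 Het arrays) and Hom minus WT was 0.53 (SE 0.82, limma adjusted p = 1). The Het arrays differed from each other by 2.23 log2 units at Ryr2 and 1.80 at Casq2, more than either stood from WT. These tests took the spread of the Het pair at each probe set, drawn by eBayes toward the spread of that pair over all probe sets. They assumed that the lone Hom and WT arrays vary like the Het pair. Over all 11316 probe sets limma called 0 in each of Hom minus WT, Het minus WT and Hom minus Het (0% called), where 66, 128 and 104 passed an unadjusted p of 0.05. With limma's trend and robust options the calls were 0, 3 and 1.

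Compared with the muscle markers, Ryr2 and Casq2 moved by different amounts in Het replicate 2. The difference of Ryr2 from WT, -1.70, was lower than that of 26 of the 30 cardiomyocyte markers, while that of Casq2, -0.90, was higher than that of 20 of them. In Hom, Ryr2 stood higher against WT than 29 of 30 markers and Casq2 higher than 26. These ranks rest on 1 array on each side.

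The pump gene Atp2a2 was read by 4 probe sets that disagreed. The one with the highest mean gave 3409.6 in Hom, 3452.5 and 1002.2 in Het replicates 1 and 2, and 2950.1 in WT. A second (1452363_a_at) gave 2280.3 in Hom, 1734.1 and 446.5 in the Het arrays, and 1834.3 in WT, and was 4.11-fold lower in Het replicate 2 than in WT. Both put Het replicate 2 far below the other arrays, which lay within 1.32-fold of each other.

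The other 2 probe sets of Atp2a2 did not. Probe set 1427250_at gave 1068.1 in Hom, 904.4 and 1370.9 in Het replicates 1 and 2, and 1029.9 in WT, so Het replicate 2 was the highest array there. Probe set 1427251_at gave 149.2 in Hom, 180.6 and 74.8 in the Het arrays, and 100.5 in WT, 1.34-fold lower in Het replicate 2 than in WT. Relative to WT the 4 probe sets thus ran from -2.04 to 0.41 log2 units in Het replicate 2, while in Hom all 4 were higher, by 0.05 to 0.57. The gene is known for a muscle form and a widely expressed form of its transcript, and the annotation used here does not say which form each probe set reads. For probe set 1452363_a_at, Het minus WT was -1.06 (SE 0.66, limma adjusted p = 0.9999, lower in 2 of 2 Het arrays), the only one of the 15 with a 2-fold difference in the Het mean. That value rests on Het replicate 2, as it was -0.08 without that array and -2.04 without Het replicate 1. With median centring it was -0.95, under 2-fold. Of all probe sets, 0.972% were at least 2-fold lower in the Het mean. None of the 15 was 2-fold higher in it, as 0.751% of all were.

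Pln, the inhibitor of that pump, was read alike by its 3 probe sets. The probe set with the highest mean gave 2205.8 in Hom, 3003.4 and 611.3 in Het replicates 1 and 2, and 1972.9 in WT. A second gave 2001.5 in Hom, 2345.6 and 704.6 in the Het arrays, and 1911.9 in WT. The third gave 1082.8 in Hom, 956.0 and 190.2 in the Het arrays, and 803.4 in WT. All 3 read slightly higher in Hom than in WT, by 0.07 to 0.43 log2 units, higher in Het replicate 1 by 0.25 to 0.61, and lower in Het replicate 2 by values of -2.08 to -1.44. Each was lower in Het replicate 2 than at least 25 of the 30 cardiomyocyte markers. None passed limma for Het minus WT (adjusted p = 0.9999 for each, lower in 1 of 2 Het arrays).

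As the level of Pln relative to its pump sets how strongly calcium uptake is held back, their differences were set side by side, each by its brightest probe set. Against WT the difference of Pln minus that of Atp2a2 was -0.05 log2 units in Hom, 0.38 in Het replicate 1 and -0.13 in Het replicate 2. These values hold for that choice of probe set. In Het replicate 2 the 4 Atp2a2 probe sets lay between -2.04 and 0.41, on both sides of the -1.69 of Pln. For Casq2 minus Ryr2 the values were -0.04 in Hom, 0.38 in Het replicate 1 and 0.80 in Het replicate 2.

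**Figure D2:**
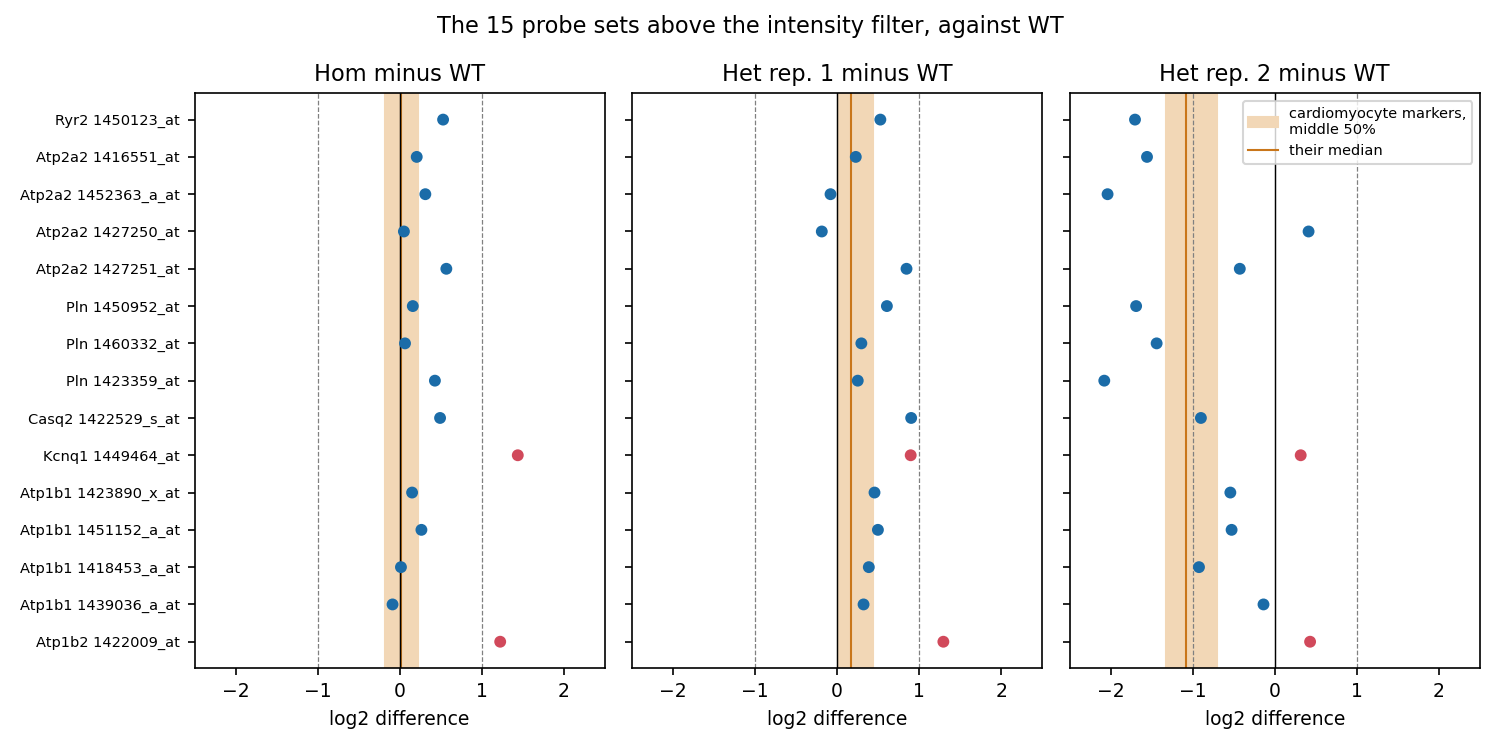
Log2 difference from WT of the 15 probe sets that passed the filter, in Hom, Het replicate 1 and Het replicate 2. Red points are Kcnq1 and Atp1b2, which were picked for reading higher; the band spans the middle 50% of 30 cardiomyocyte markers, the orange line is their median (0.02, 0.17 and -1.08), and dashed lines mark 2-fold. In Het replicate 2 the Ryr2, Pln and 2 of the Atp2a2 points lie below the band and the red points lie above 0.

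Promoters are shown for the 3 genes of calcium release, storage and uptake that were below WT in Het replicate 2 and matched the RefSeq promoter table, which held 5 of the 8 genes. Each is the 250 bases before the RefSeq start in build GRCm38.p6, on the gene's own strand, with motif matches other than E-boxes in capitals. Pln is at chr10:53337436-53337685 (+), Casq2 at chr3:102086165-102086414 (+) and Ryr2 at chr13:12106946-12107195 (-).
Pln: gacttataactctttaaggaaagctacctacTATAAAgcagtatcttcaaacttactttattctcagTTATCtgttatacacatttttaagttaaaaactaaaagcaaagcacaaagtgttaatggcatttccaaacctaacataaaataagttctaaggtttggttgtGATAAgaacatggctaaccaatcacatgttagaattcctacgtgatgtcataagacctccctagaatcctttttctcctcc
Casq2: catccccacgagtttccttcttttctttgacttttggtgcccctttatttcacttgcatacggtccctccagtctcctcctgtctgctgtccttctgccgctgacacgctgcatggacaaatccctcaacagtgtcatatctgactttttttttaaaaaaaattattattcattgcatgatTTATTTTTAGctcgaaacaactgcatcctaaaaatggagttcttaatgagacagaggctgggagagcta
Ryr2: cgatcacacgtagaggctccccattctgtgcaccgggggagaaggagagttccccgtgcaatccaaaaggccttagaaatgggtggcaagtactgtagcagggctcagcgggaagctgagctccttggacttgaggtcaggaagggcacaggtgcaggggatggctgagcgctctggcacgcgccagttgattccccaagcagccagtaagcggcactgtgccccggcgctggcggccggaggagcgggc

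The 3 sequences differ in composition and in the motifs they hold. Their G and C share was 32.8% for Pln, 41.6% for Casq2 and 63.2% for Ryr2, where the median of 32817 promoters was 52.4%. Both strands were searched for the TATA box, spelled TATAAA, the core of the site for cardiac factors of the family named after it, GATAA, the muscle element M-CAT, spelled CATTCC, the E-box, spelled CANNTG, the GC box, spelled GGGCGG, the MEF2 site and the CArG box. The capitals in Casq2 are a MEF2 site that starts 69 bases before the start, a motif held by 2.92% of all promoters of that length. The capitals in Pln are 1 TATA box and 2 of the GATAA motif, 1 of them on the opposite strand, held by 12.4% and 22.6% of all. Ryr2 has no capitals; it and Casq2 each held 2 E-boxes and Pln held 1, a motif found in 66.2% of all. A match describes the letters in this window and not a bound site.

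Slc8a1, the sodium-calcium exchanger, was dim on every array. Its brightest probe set read 57.2 in Hom, 42.8 and 62.8 in Het replicates 1 and 2, and 57.0 in WT. The other 2 read 43.3 and 35.1 in Hom, 23.2 and 31.8 in Het replicate 1, 16.5 and 12.8 in Het replicate 2, and 26.7 and 21.8 in WT. Both of these were highest in Hom and under the floor in Het replicate 2, whereas the brightest was highest in Het replicate 2. All 3 lay below the filter, so no test was made for this gene.

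Among the ion current genes, Kcnq1 was read by 1 probe set, at 104.0 in Hom, 71.3 and 47.7 in Het replicates 1 and 2, and 38.3 in WT. Hom was the highest array and WT the lowest, with both Het arrays between them, and Hom was 2.72-fold above WT. Since the gene was picked for its rise on the mutant arrays, the values are a description and carry no test. The level was low. Among the 1437 probe sets with a mean between 62.6 and 80, 2.23% were at least 2-fold higher in Hom than in WT, against 0.698% of all probe sets that passed the filter. In that dim range the SD of the log2 difference was 0.47 between Hom and WT and 0.66 between the Het arrays. For Kcnq1, Het replicate 2 minus Het replicate 1 was -0.58, within 1 such SD.

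Kcne1, the partner that gives the Kcnq1 channel its slow opening, did not share that order. It read 399.9 in Hom, 335.4 and 95.4 in Het replicates 1 and 2, and 394.0 in WT. Hom and WT were nearly equal, and the difference of Het replicate 2 from WT was -2.05 log2 units, on the array where the muscle markers were low. Kcnh2, the channel of the rapid potassium current, read 85.8 in Hom, 85.3 and 46.2 in the Het arrays, and 91.9 in WT. The 3 genes with profiles closest to Kcnq1 over the 4 arrays were Tbxa2r, the thromboxane A2 receptor, Slc34a2, a phosphate transporter, and Nek2, a mitotic kinase. Their distances were 0.28, 0.33 and 0.38 log2 units. These are the 3 smallest among 1013 genes with a range of at least 1 log2 unit, so they are small by the way they were chosen.

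Atp1b1, the common beta subunit of the sodium pump, was read by 5 probe sets, 4 of them above the filter. The brightest, whose suffix marks possible cross-binding, gave 1116.2 in Hom, 1377.0 and 690.1 in Het replicates 1 and 2, and 1004.3 in WT. A second gave 1135.7 in Hom, 1332.7 and 655.8 in the Het arrays, and 944.4 in WT. Het replicate 1 was the highest and Het replicate 2 the lowest array in both. The third (1418453_a_at) gave 184.4 in Hom, 238.2 and 96.1 in the Het arrays, and 182.3 in WT, in the same order. The fourth (1439036_a_at) gave 123.7 in Hom, 164.1 and 119.4 in the Het arrays, and 131.3 in WT, a narrower range.

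In Het replicate 2 the Atp1b1 differences from WT ran from -0.92 to -0.14 log2 units. All 4 lay above the cardiomyocyte median of -1.08, whereas the Ryr2 and Pln differences lay below it. In Hom they ran from -0.09 to 0.27. The sign of 2 values depends on the scaling of the arrays. The value of 1418453_a_at in Hom was 0.02 as deposited and -0.02 after median centring, and that of 1439036_a_at in Het replicate 2 was -0.14 and 0.10. No probe set passed limma for Hom minus WT or Het minus WT (adjusted p = 1 and 0.9999). The fifth stayed between 45.2 and 53.3 on all arrays, below the filter.

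Atp1b2, a beta subunit best known from glia, was read at 88.7 in Hom, 93.0 and 51.1 in Het replicates 1 and 2, and 37.9 in WT. All 3 mutant arrays were above WT, Hom 2.34-fold, Het replicate 1 2.45-fold and Het replicate 2 1.35-fold. It too was picked for being high on the mutant arrays and lies in the same dim range, where 2.71% of probe sets were at least 2-fold higher in Het replicate 1 than in WT. Over all probe sets that share was 0.822%. The second Atp1b2 probe set read 6.4 in Hom, 8.9 and 5.1 in the Het arrays, and 7.9 in WT, below the floor on all 4 arrays, so the higher reading rests on 1 probe set. Arf5, Srrm1 and Jag2 had the closest profiles, each at a distance of 0.07 or 0.08 log2 units.

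Glial and neuronal markers were read beside it. Of 18 listed, 9 passed the filter, and 4 of these read higher than WT in Hom, 2 in Het replicate 1 and 3 in Het replicate 2. Their median difference from WT was -0.04 in Hom, -0.14 in Het replicate 1 and -0.20 in Het replicate 2, with single markers from -0.55 to 0.66 in Hom, -1.80 to 0.55 in Het replicate 1 and -1.07 to 1.45 in Het replicate 2. Their sum was 1854 in Hom, 2313 and 1865 in Het replicates 1 and 2, and 1949 in WT, most of it from Pmp22, a myelin protein also made outside glia. Pmp22 alone read 1018.3 in Hom, 1690.5 and 1005.0 in the Het arrays, and 1156.8 in WT. The part of these cells in the Atp1b2 reading was not tested. Among the other subunits, Atp1b3 read 1372.1 in Hom, 1581.8 and 1428.7 in the Het arrays, and 1293.1 in WT, with mutant arrays at most 0.29 log2 units above WT. The catalytic alpha subunits were not analysed here.

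Kcnq1 and Atp1b2 were the 2 of 15 probe sets with all 3 mutant arrays above WT, a pattern shown by 19.4% of all probe sets. They were also the 2 of 15 at least 2-fold higher in Hom than in WT, where 0.698% of all were. The rule chose these 2 for their rise on the mutant arrays and so favoured both patterns in them. Neither count is evidence that they differ. The remaining 13 had Hom minus WT differences between -0.09 and 0.57, with 12 above 0, where 51.6% of all probe sets were. These 13 include several probe sets of 1 gene and are not independent of each other. In Hom minus the Het mean, 3 of 15 were at least 2-fold higher, those of Ryr2, Pln (1423359_at) and Atp2a2 (1452363_a_at), against 0.884% of all probe sets. Against the Het arrays taken alone, 8 of 15 were at least 2-fold higher in Hom than in Het replicate 2 and 0 of 15 than in Het replicate 1, where 4.83% and 1.12% of all were. None of the 15 was 2-fold lower in Hom than in the Het mean, Het replicate 1 or Het replicate 2, where 0.636%, 0.654% and 2.5% of all were.

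**Figure D3:**
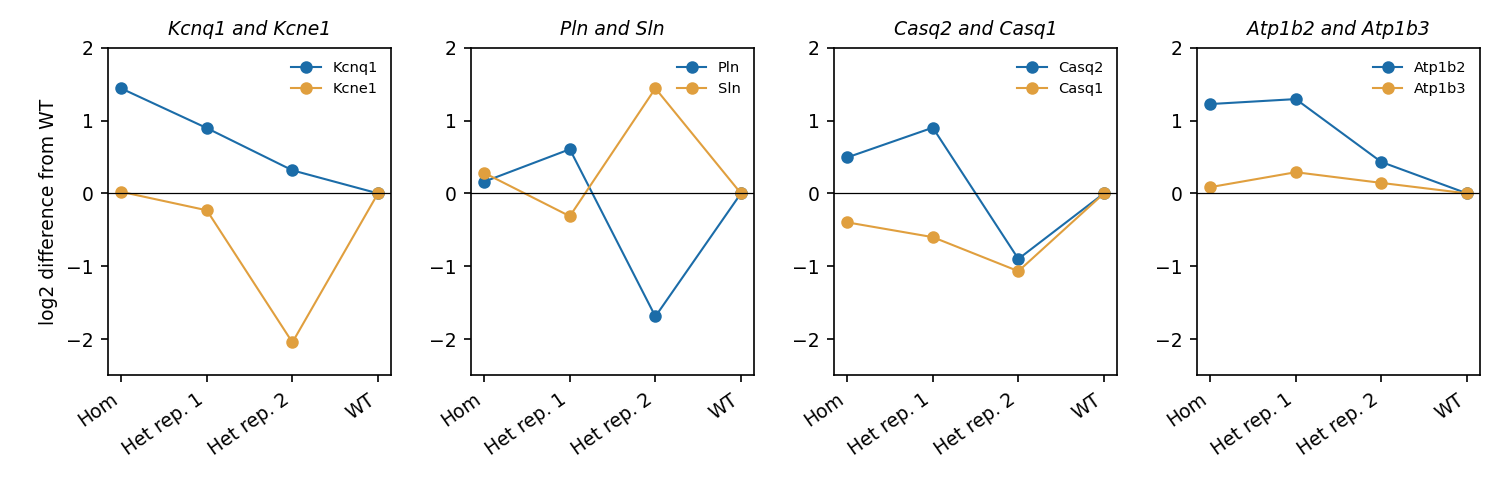
Log2 difference from WT (y axis) on the Hom, Het replicate 1, Het replicate 2 and WT arrays for 4 pairs of related genes, each read by its brightest probe set. WT is 0 by construction. Kcne1 and Pln were lowest in Het replicate 2 while Kcnq1 and Sln were above WT there, and Casq1 was below WT on all 3 mutant arrays.

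Other genes of the calcium cycle were read from lists chosen with earlier results known, without the 8 genes. Of 20 listed genes for calcium release and storage, 12 were measured above the filter. Their median difference from WT was 0.01 in Hom, -0.07 in Het replicate 1 and -0.56 in Het replicate 2, where the median of all genes was 0.02, 0.02 and -0.05. In Het replicate 2, 9 of 12 were lower than WT and 3 at least 2-fold lower, where 3934 and 285 of all 7314 genes were. Hrc, a calcium-binding protein of the store, read 350.7 in Hom, 387.2 and 134.0 in the Het arrays, and 333.6 in WT, with the shape of Pln. Trdn, triadin, which ties calsequestrin to the release channel, read 336.9 in Hom, 261.8 and 164.1 in the Het arrays, and 243.3 in WT. A second Trdn probe set that passed the filter read 77.9 in Hom, 131.5 and 62.3 in the Het arrays, and 105.2 in WT, so the pair disagreed in Hom and were both below WT in Het replicate 2. Jph2, which holds the store next to the cell membrane, differed from WT by 0.28 in Hom, 0.12 in Het replicate 1 and -0.55 in Het replicate 2.

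Some relatives of the 8 genes ran another way. Casq1, the skeletal muscle calsequestrin, read 238.6 in Hom, 207.3 and 149.9 in Het replicates 1 and 2, and 314.4 in WT. It was the opposite of Casq2 in Hom and in Het replicate 1, below WT by differences of -0.40 and -0.60. Sarcolipin (Sln), which inhibits the calcium pump mainly in atrial and skeletal muscle, read 130.6 in Hom, 86.5 and 292.2 in Het replicates 1 and 2, and 107.5 in WT. It was 1.44 log2 units above WT in Het replicate 2, where Pln was at -1.69. A second Sln probe set read 9.6 in Hom, 4.3 and 3.8 in the Het arrays, and 4.1 in WT, below the floor on every array. The higher Sln reading thus rests on 1 probe set. The atrial light chain Myl7 was the 1 cardiomyocyte marker above WT on that array, at 1348.3 in Hom, 1364.3 and 2659.1 in the Het arrays, and 1672.8 in WT, whereas the other atrial light chain Myl4 was below it, at 1590.1 against 1976.3 in WT. Fkbp1b, which binds the release channel, read 135.2 in Hom, 121.8 and 172.0 in the Het arrays, and 140.4 in WT.

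The other calcium pumps and exchangers gave 5 measured genes of 13 listed, with medians of 0.28 in Hom, -0.06 in Het replicate 1 and -0.35 in Het replicate 2. Atp2a1, the pump of fast skeletal muscle, read 139.9 in Hom, 65.6 and 62.3 in the Het arrays, and 101.3 in WT. Atp2a3, the pump of many cells other than muscle, read 191.2 in Hom, 231.9 and 127.0 in the Het arrays, and 242.1 in WT. Slc8b1, the mitochondrial exchanger, read 94.0 in Hom, 103.0 and 60.1 in the Het arrays, and 70.7 in WT. Only 2 of 12 L-type and T-type calcium channel genes passed the filter, Cacna1d and Cacna1g, both below WT in Het replicate 2 by values of -0.66 and -0.93. Cacna1c, the main pore of the cardiac L-type channel, read 45.6 in Hom, 57.3 and 21.8 in the Het arrays, and 61.5 in WT, below the filter.

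Of 22 listed kinases, phosphatases and adrenergic genes, 10 were measured, with medians of 0.11 in Hom, 0.10 in Het replicate 1 and -0.08 in Het replicate 2. Rcan1, an inhibitor of the calcium-activated phosphatase calcineurin, was higher than WT on all 3 mutant arrays, at 392.3 in Hom, 476.0 and 472.4 in the Het arrays, and 244.8 in WT. Its differences of 0.68, 0.96 and 0.95 log2 units did not reach 2-fold. Camk2g, a calcium and calmodulin kinase, read 188.7 in Hom, 181.2 and 88.6 in the Het arrays, and 155.8 in WT. Ppp3ca, the calcineurin catalytic subunit, read 442.3 in Hom, 615.5 and 327.0 in the Het arrays, and 466.4 in WT.

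The potassium and pacemaker channel list, without Kcnq1, gave 5 measured genes of 30, with medians of 0.02 in Hom, -0.11 in Het replicate 1 and -0.64 in Het replicate 2. Kcnj8, the pore of an ATP-sensitive potassium channel of vessels and heart, was above WT on all 3 mutant arrays, at 155.9 in Hom, 151.6 and 173.5 in the Het arrays, and 95.8 in WT. Kcnj3, a channel opened by muscarinic signals in the atrium, was below WT on all 3, at 90.7 in Hom, 91.8 and 70.9 in the Het arrays, and 110.7 in WT. Of 13 further sodium pump and FXYD genes, 5 were measured, with medians of 0.12, -0.12 and -0.27. Fxyd1, phospholemman, which regulates the pump, read 896.2 in Hom, 510.3 and 545.8 in the Het arrays, and 658.4 in WT, with Hom the highest array and both Het arrays below WT. Of 11 sodium channel and gap junction genes, 2 were measured, Gja1 and Gjc1, with differences from WT between -0.05 and 0.31. Over all these lists, 0 genes passed limma in any of the 3 comparisons between genotypes.

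**Figure D4:**
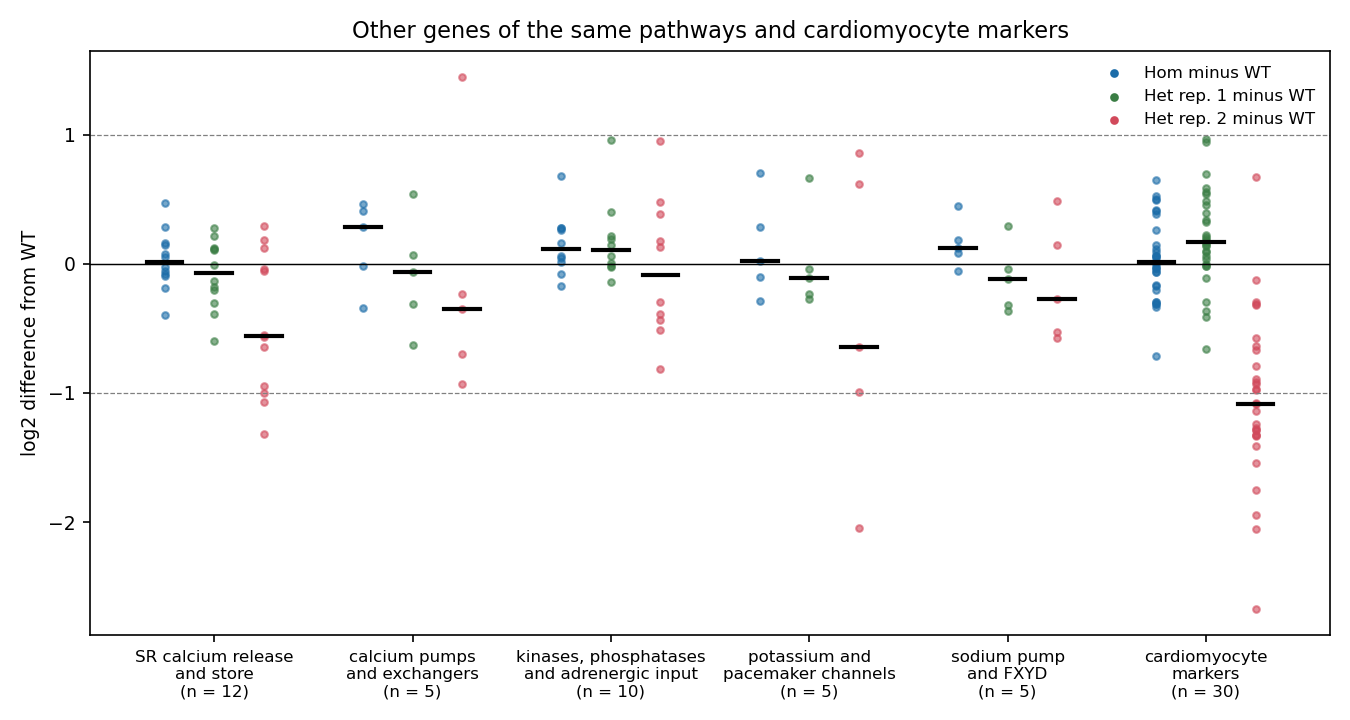
Log2 difference from WT (y axis) of the measured genes of 5 lists, without the 8 genes, and of 30 cardiomyocyte markers, for Hom, Het replicate 1 and Het replicate 2. Each point is 1 gene, black bars are list medians, and dashed lines mark 2-fold. The cardiomyocyte median in Het replicate 2 is -1.08 and that of the calcium release and store list -0.56.

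The genes nearest in shape across the 4 arrays were partly genes of heart muscle. Myl2, the ventricular myosin light chain, was closest to Pln, at a distance of 0.15 log2 units, and read 8625.2 in Hom, 12041.5 and 2606.9 in the Het arrays, and 8774.6 in WT. Dclre1a and Ccdc97 followed it, at 0.23 and 0.24. Closest to Casq2 was Itgb1bp2, melusin, a muscle protein that binds integrin, at 0.09, followed by Cemip2 at 0.10 and titin (Ttn) at 0.16. For Atp1b1 the nearest were Fntb, Akap2 and Klhdc4, at 0.03 to 0.04. Its range was under 1 log2 unit, so it was compared with 7313 genes. Pln, Casq2, Ryr2 and Atp2a2 were compared with 1013, so its distances cannot be set beside theirs. For Ryr2 the third was Ckmt2, the mitochondrial creatine kinase of muscle, at 0.21, after Sntb2 and Dclre1a. For Atp2a2 the nearest were Nol6, Brd3 and Rcor1, at 0.07 to 0.17, which are not markers of muscle. Likeness over 4 arrays is given as a description.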

How the data were processed

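Per the labels, total RNA from mouse mitral valve was measured on 1 Hom, 2 Het and 1 WT array, and samples were grouped by title and genotype. The deposited table holds linear intensities of 22690 probe sets, and how the authors computed them is not given in the sources used here. Its 4 trimmed means are equal, at 150.1 (2% trimmed from both tails), so it was already scaled and was used without further normalization. Arrays were not centred on their medians, because centring would put the median probe set of Het replicate 2 at 0.18 log2 units above WT, against -0.07 as deposited and -0.01 after quantile normalization.

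Gene names came from the platform's annotation table, and 20364 of the 20393 single-gene probe sets could be given a current symbol. The 64 control probe sets were left out. Values were floored at 18.9 and log2 transformed, and 11316 probe sets with a mean of at least 62.6 entered the limma fit (version 3.58.1, R 4.3.3, lmFit and eBayes, 3 groups, Benjamini-Hochberg over all of them, threshold 0.05). Precision is limited by there being 4 arrays. In lists, the brightest probe set stood for a gene.

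The members and lists were chosen with earlier results of these data known. Genes named were all probe sets of the 8 genes, their direct partners, the 2 highest and 2 lowest of each list for Hom minus WT and Het minus WT (a selection is printed), and the 3 nearest profiles by Euclidean distance; Myl7, Myl4 and Pmp22 were chosen after their values were seen. The fit was tested on simulated data only for the size of planted differences. That check set no condition on how many planted changes limma called. Alternatives were median centring, quantile normalization, no floor, no filter or one at the 75th percentile, 1 probe set per gene, limma with trend and robust, leaving out each Het array and a 1.5-fold limit. Figures used matplotlib 3.10.9 in Python 3.11.15.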

Additional observations from a re-analysis of the deposited data

How the results depend on the processing

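Under median centring and quantile normalization, all log2 differences of the 15 probe sets stayed within 0.44 log2 units of the reported value. That limit is the SD of a single Het array over all probe sets. It is the SD of the difference between the Het arrays, 0.62, divided by the square root of 2. The other filters and 1 probe set per gene only choose probe sets, and none of the 15 was under the floor. These settings therefore could not move a value, though they are counted in the 456 differences compared. With a Het array left out, 44 of 60 differences that involve the Het mean moved by more than 0.44. Each probe set enters these 60 several times with a shift of the same size, set by the difference between its Het arrays. They are therefore not separate checks. With median centring and quantile normalization, Het replicate 2 minus WT was 0.56 and 0.58 for Kcnq1 (0.32 as reported) and 0.67 and 0.69 for Atp1b2 (0.43 as reported). For Het minus WT, 6 probe sets were at least 2-fold apart without Het replicate 1 and 1 without Het replicate 2, against 1 with both, and 0 with median centring or 1 probe set per gene. The 1 with both arrays was Atp2a2 1452363_a_at, lower, and the 1 without Het replicate 2 was Atp1b2, higher at 1.30 (0.86 with both). For Hom minus Het, the counts were 8 without Het replicate 1 and 0 without Het replicate 2, against 3 with both and 1 with 1 probe set per gene. With 1 probe set per gene, 3 were 2-fold apart between Het replicate 2 and WT (6 as reported) and 4 between the Het arrays (10 as reported), since fewer probe sets are counted. The filter at the 75th percentile removed Kcnq1 and Atp1b2 and left 0 probe sets 2-fold apart for Hom minus WT and for Het replicate 1 minus WT, against 2 and 1. With a 1.5-fold limit, 5 differed in Het replicate 1 minus WT. The share of all probe sets past that limit was not computed, so this count has nothing to be set against. Over all probe sets, limma with trend and robust called 3 for Het minus WT and 1 for Hom minus Het, and the filter at the 75th percentile gave 1 call for Het minus WT. Limma could not be run without either Het array, as no residual degree of freedom is left. No paired analysis was possible because Hom and WT have 1 array each and share fewer than 2 replicate numbers with Het. The Kcnq1, Atp1b2 and Slc8a1 probe sets are dim, near or below the filter.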
